A study of Mus musculus with 4 samples.

Results

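The genes described are 40 components of the actin and myosin machinery that smooth muscle and contractile fibroblasts build: actins, transgelins and calponins, non-muscle and smooth muscle myosins, tropomyosins, alpha-actinins, PDZ-LIM and LIM-only proteins, desmin, vimentin and the transcription factor SRF. They were taken by symbol from 33641 genes with a value, all 40 were found, and 39 passed the filter on low values. RNA came from primary cardiac fibroblasts of wild-type C57BL/6J mice aged 12 weeks. Of 4 libraries, 2 were from cells given the vehicle control and 2 from cells given 10 ng/ml TGFbeta, and all 4 had taken up 4-thiouridine, a crosslinkable uridine analogue, and were exposed to ultraviolet light. The design text describes RNA eluted from the RNA-binding protein HuR and the sample labels describe total RNA, and these cannot be told apart here, so every value is a level in a library of either kind. The labels do not say how many mice were used or whether the 2 libraries of a group were separate cultures. The p-values therefore measure the spread between these libraries only, which may be technical.

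Fibroblasts that meet TGF-beta can turn into myofibroblasts, which bundle actin and non-muscle myosin II into stress fibres and pull on the matrix. Smooth muscle actin, encoded by Acta2, is the usual marker of that state, while the smooth muscle myosin heavy chain Myh11 marks true smooth muscle. Myosin filaments pull when kinases such as MYLK phosphorylate their regulatory light chain, tropomyosins and calponins coat the actin filament, and alpha-actinins and PDZ-LIM proteins tie filaments together. SRF binds a short DNA element, the CArG box, in many of these genes, with cofactors that sense free actin.

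With TGFbeta, levels of Acta2, Actg2, Tagln2, Cnn1, Palld, Pdlim1 and Csrp2 rose, between 1.60-fold (Palld) and 2.82-fold (Cnn1). Pdlim3 and Fhl1 fell, 2.21-fold and 2.31-fold. The other 30 tested members did not pass, among them Myh11, Lmod1, Smtn, Synpo2 and Des, all genes typical of differentiated muscle. The 40 genes together took 3.11% and 3.03% of all TPM with vehicle and 3.73% and 3.78% with TGFbeta. TPM is a level per transcript length, scaled to a fixed total in each library.

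Differences were tested with limma across the 15815 genes whose mean TPM reached 1. The log2 change is TGFbeta minus vehicle on the log2(TPM + 1) scale, which understates changes of low genes, and a gene was called at an adjusted p under 0.05. By that rule 9 of 39 tested members were called, against 5.92% of all tested genes. An unadjusted p under 0.05 was found for 16 members, against 24.5% of all tested genes. Of the 9 called members, 7 (17.9% of the 39 tested) were higher, against 1.54% of all tested genes. The other 2 (5.13%) were lower, close to the background of 4.38%. Libraries of the treatments did not overlap for 26 of the 39 (66.7%), against 55.3% of all tested genes, with 19 members higher (15.5% of all tested genes) and 7 lower (39.8%). The median log2 change of the members was 0.13 and that of all tested genes -0.13. Median scaling of the libraries shifts the median change of all tested genes by 0.15, to 0.03. After it 9 members were called higher (2.66% of all tested genes) and 2 lower (2.54%).

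The count of called members varied with the settings and the libraries. With the filter raised to a mean of 5 TPM it was 9 higher and 3 lower (background 3.02% and 9.02%), and in a robust fit also 9 and 3 (2.03% and 5.75%). After quantile normalization it was 6 and 2 (2.11% and 2.54%), and without a trend of the variance with level 3 and 1 (1.04% and 2.76%). With the library number as a block it was 4 and 2 (1.18% and 2.81%). Every call was lost without vehicle 1, without vehicle 2, and with all genes above 0 in the limma fit (0 of 39 members each time, while 12, 12 and 16 had an unadjusted p under 0.05). Without TGFbeta 1 the call of Tagln2 alone was left, and without TGFbeta 2 those of Tagln2 and Fhl1.

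**Figure D1:**
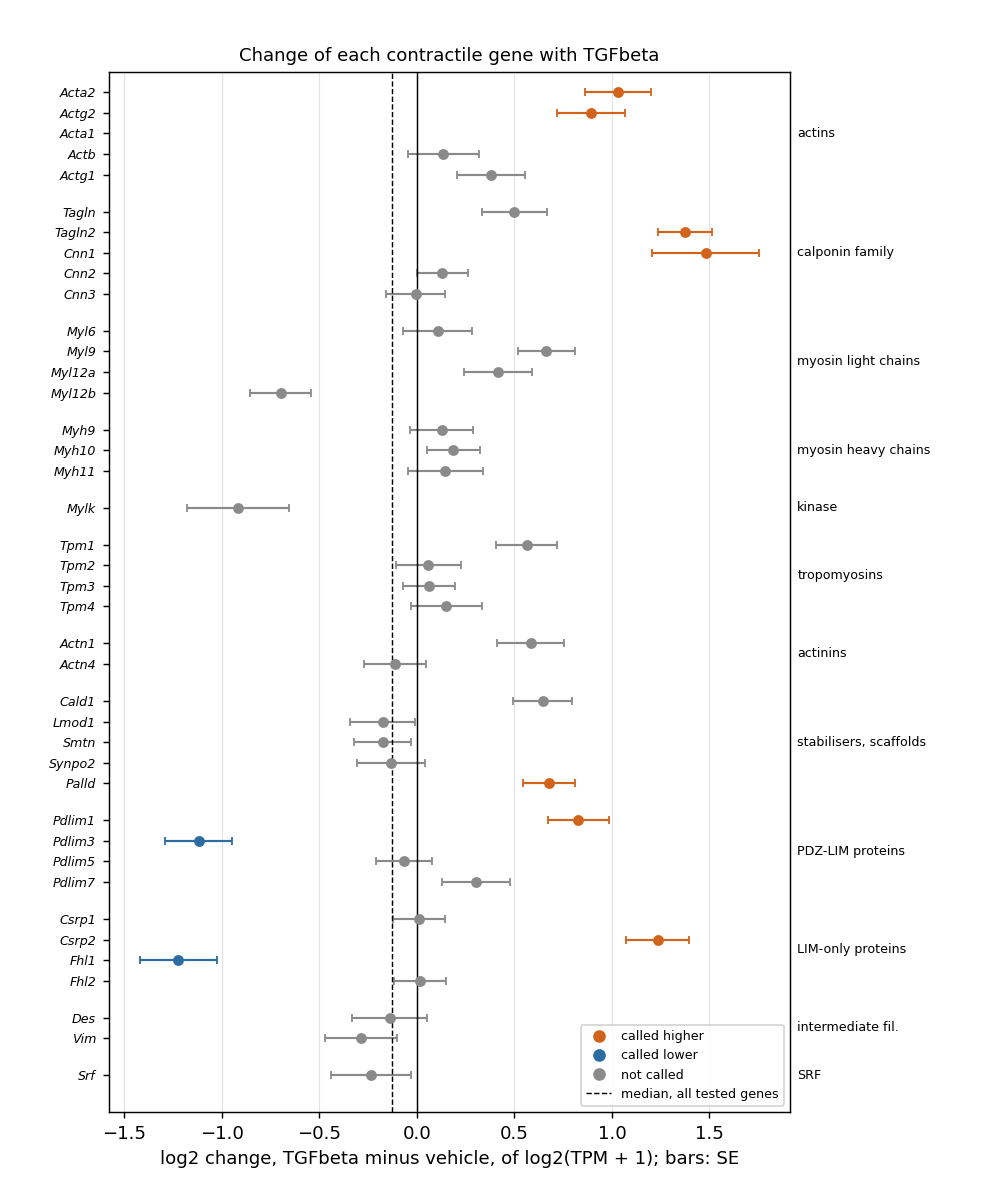
Log2 change of each contractile gene (x axis, TGFbeta minus vehicle of log2(TPM + 1)) with its limma standard error as a bar, grouped by role; the dashed line is the median of all tested genes at -0.13. The 7 genes called higher lie between 0.68 and 1.48 and the 2 called lower at -1.12 and -1.22; Acta1 was not tested and has no point.

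**Figure D2:**
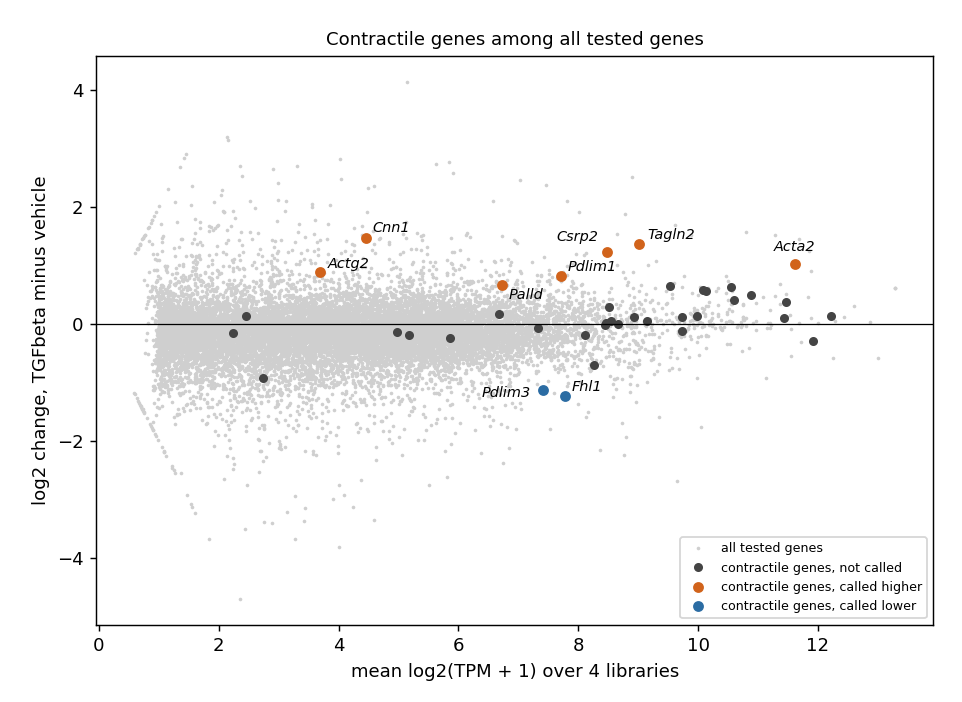
Log2 change (y axis) against mean log2(TPM + 1) over 4 libraries (x axis) for all 15815 tested genes in grey, with the 39 tested contractile genes on top. Called members are found from low levels (Actg2, Cnn1) to one of the highest (Acta2).

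Levels of the members ranged widely. In mean TPM over the 4 libraries, 11 members lay above 1000, 31 above 100 and 4 under 10, and 8 were among the 100 most abundant genes. The libraries of a group lay close together, with a median ratio of the higher to the lower of 1.11 in vehicle and 1.12 in TGFbeta. Only Cnn1 among the vehicle pairs (1.84) and Mylk among the TGFbeta pairs (1.52) exceeded a ratio of 1.5.

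**Figure D3:**
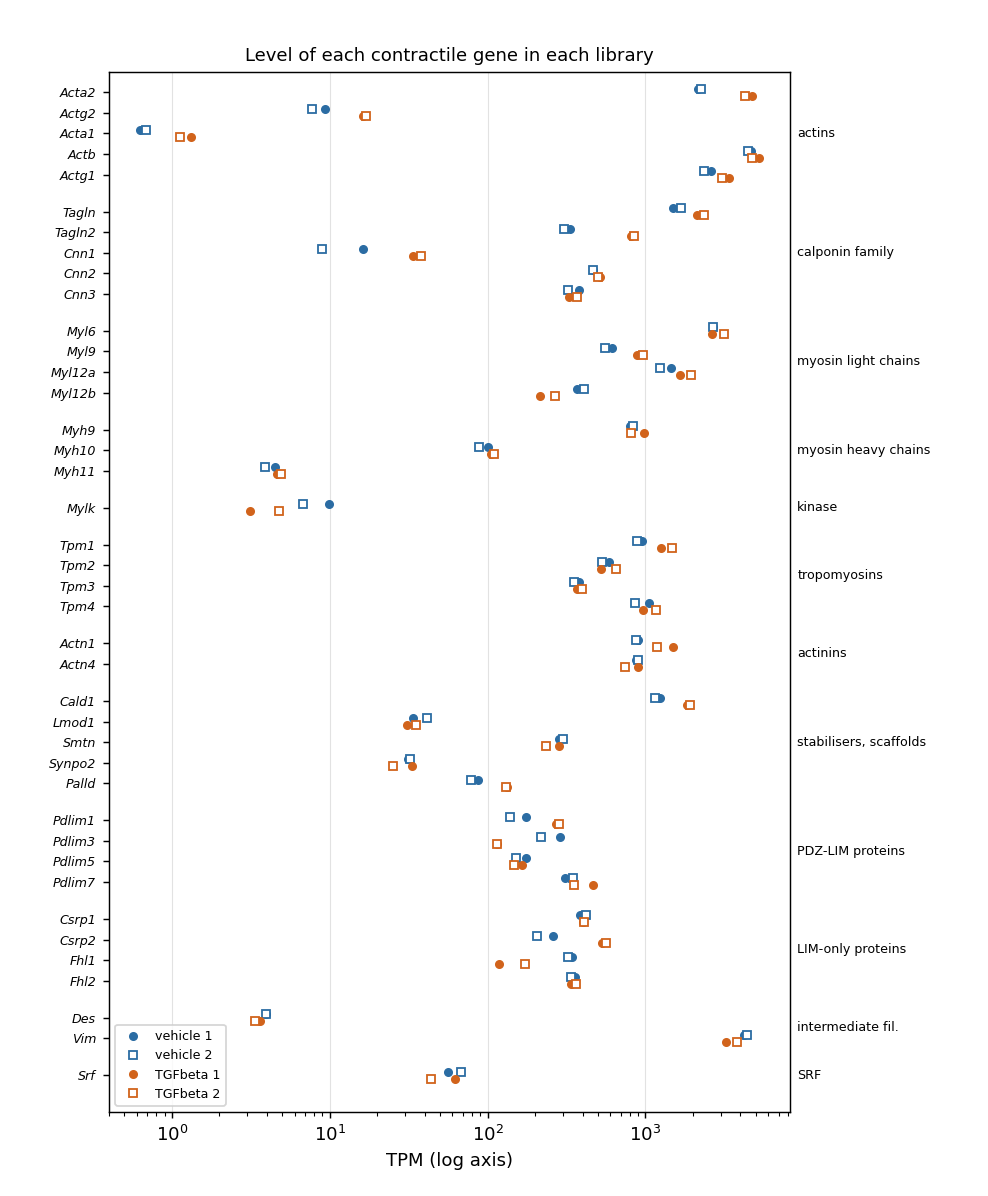
TPM (log axis) of the 40 genes in each of 4 libraries, blue for vehicle and orange for TGFbeta, filled circles for library 1 and open squares for library 2. Actb, Vim and Acta2 are the most abundant members, and Acta1 is the only member with a mean below 1 TPM.

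The label of the set, smooth muscle type, was compared with the levels of its defining genes. Acta2 and Tagln were among the most abundant members, and Smtn had 236 to 301 TPM. Lmod1 had 30.9 to 41.5 TPM, Synpo2 25.2 to 33.2, Cnn1 8.89 to 37.7 and Actg2 7.70 to 17.1. The lowest of these genes were Myh11, with 3.92 to 4.92 TPM, and Des, the muscle intermediate filament, with 3.35 to 3.94 TPM. Myh9, the non-muscle heavy chain, exceeded Myh11 in TPM 177 and 212 times in the vehicle libraries and 213 and 164 times in the TGFbeta libraries. Vim, the filament of fibroblasts, exceeded Des 900.4 to 1140.1 times. The libraries carried smooth muscle actin and transgelin on a background of non-muscle myosin and vimentin in all 4 libraries.

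Genes of other cells that could be present were read beside these values. In summed TPM, 9 fibroblast markers took 15646 to 19504 in vehicle and 15925 to 17566 in TGFbeta libraries. Collagens weighed most in these sums and went opposite ways, without a call. Col3a1 had 9018 to 11207.5 TPM with vehicle and 6532 to 6979 with TGFbeta, and Col1a1 had 2392 to 3148 and 4272 to 6221. Of the 9 fibroblast markers, 0 were called higher and 2 lower, against 1.54% and 4.38% of all tested genes. Pdgfra, a receptor that marks fibroblasts, fell by 1.42 on the log2 scale (limma adjusted p = 0.0106). Tcf21, a fibroblast transcription factor, fell by 1.11 (limma adjusted p = 0.0148). A limma unadjusted p under 0.05 was found for 5 of the 9, against 24.5% of all tested genes. For 13 vascular smooth muscle and pericyte markers the sums were 481 to 529 in vehicle and 477 to 484 in TGFbeta. Pdgfrb alone held 285 to 327 TPM of each sum. Of 11 tested, limma called Rgs4 and Mcam higher, Notch3 and Steap4 lower (background 1.54% and 4.38% of all tested genes). Of the same 11, 8 had an unadjusted p under 0.05, against 24.5% of all tested genes. For 16 cardiomyocyte markers the sums were 133 to 175 in vehicle and 105 to 109 in TGFbeta. Myh6, Actc1 and Myl7 were at 0 in at least 1 library and none at 0 in all. For 8 endothelial markers the sums were 78.2 to 82.1 and 58.2 to 63.0, for 9 leukocyte markers 77.9 to 95.0 and 61.9 to 67.5, and for 8 mesothelial and epithelial markers 13.7 to 16.4 and 11.2 to 12.1. None of the last 4 lists had a called gene, with 9, 7, 7 and 3 genes tested. Of these, 2, 2, 2 and 1 had a limma unadjusted p under 0.05, against 24.5% of all tested genes. The part of these cell types in the results was not tested. In these bulk libraries fewer cells of a type and less RNA per cell cannot be told apart. Nor can less RNA bound to HuR, if the libraries hold eluted RNA.

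SRF binding elements mark many genes of this set, so the promoter windows were searched for the CArG box. The windows run from 250 bases before to 50 bases after the start site (RefSeq, GRCm38.p6), and 35 of the 40 members had at least 1; Actg2, Actb, Tagln, Myh11 and Csrp2 had none. The CArG box reads alike on both strands. It was found in 8 of the 35 members (22.9%) and in 1.81% of 27025 genes with a window. With 1 deviation allowed in its core, a form that includes the strict one, it was found in 12 members (34.3%) and 11.3% of all genes. The sequences below show the element in capitals with 10 bases on each side, in the direction of transcription, for 3 called members and 4 others.
Acta2 (chr19:34255438-34255467, minus strand): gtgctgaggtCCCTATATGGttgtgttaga
Acta2 (chr19:34255388-34255417, minus strand): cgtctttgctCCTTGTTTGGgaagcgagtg
Pdlim3 (chr8:45885377-45885406, plus strand): tctctcacttCCAAAGTTGGagctctcctt
Fhl1 (chrX:56779571-56779600, plus strand): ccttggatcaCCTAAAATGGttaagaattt
Actg1 (chr11:120348566-120348595, minus strand): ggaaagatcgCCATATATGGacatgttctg
Cnn2 (chr10:79988534-79988563, plus strand): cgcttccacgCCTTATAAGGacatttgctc
Myl9 (chr2:156775293-156775322, plus strand): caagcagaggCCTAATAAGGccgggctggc
Srf (chr17:46556225-46556254, minus strand): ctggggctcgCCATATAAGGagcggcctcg
Srf (chr17:46556205-46556234, minus strand): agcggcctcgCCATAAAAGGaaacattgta
The elements begin 84 and 34 bases before the start site in Acta2, 100 in Pdlim3, 102 in Fhl1, 90 in Actg1, 56 in Cnn2, 161 in Myl9, and 82 and 62 in Srf. Distances are to the RefSeq start site of the window, which need not be the outermost start of the gene: both Acta2 elements overlap a GENCODE M21 exon of Acta2, and the Fhl1 element lies inside the GENCODE span of Fhl1 but in no exon. Those of Acta2 and Pdlim3 carry 1 deviation and the others none. Of 7 called members with a window, Fhl1, which fell, held a strict element, Acta2 and Pdlim3 held a deviating one, and Tagln2, Cnn1, Palld and Pdlim1 held neither. A match is a run of letters in this window, and a missing match says nothing about elements elsewhere in the gene.

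Actins form the filament itself, and 2 of the 3 muscle isoforms in the set rose while both cytoplasmic ones did not pass. Of all tested genes, 1.54% were called higher. Acta2 (ENSMUSG00000035783.9, GRCm38 chromosome 19, 34241090 to 34255590, minus strand) had 2159.8 and 2257 TPM with vehicle and 4729.6 and 4304 TPM with TGFbeta. Both TGFbeta libraries lay far above both vehicle libraries, a 2.05-fold difference in mean TPM (log2 change 1.03, SE 0.17, limma adjusted p = 0.0293). Actg2, the actin of enteric smooth muscle (ENSMUSG00000059430.14, chromosome 6, 83512905 to 83536265, minus strand), had 9.41 and 7.70 TPM with vehicle and 16.3 and 17.1 TPM with TGFbeta. It rose 1.95-fold (log2 change 0.89, SE 0.17, limma adjusted p = 0.0431). Its level per length was far lower than that of Acta2, which exceeded it 230 to 293 times.

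Acta1, the skeletal muscle actin, had a mean of 0.940 TPM and missed the filter; its libraries held 0.626 and 0.687 TPM with vehicle and 1.32 and 1.13 TPM with TGFbeta, so they did not overlap. Actb, the ubiquitous cytoplasmic beta-actin, had 4642 and 4489 TPM against 5277 and 4759 TPM (limma adjusted p = 0.702), and its log2 change of 0.13 turned to -0.06 after quantile normalization. Actg1, the cytoplasmic gamma-actin, had 2616 and 2335 TPM against 3397 and 3045 TPM (log2 change 0.38, limma adjusted p = 0.247). All 5 actins of the set had higher TPM in both TGFbeta libraries than in either vehicle library, against 15.5% of all tested genes. The SE was 0.18 for Actb, above its log2 change, and 0.17 for Actg1, below its log2 change.

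Within the actin family the balance moved toward Acta2. It made up 22.9% and 24.8% of the summed TPM of the 5 actins with vehicle and 35.2% and 35.5% with TGFbeta. Actb went from 49.2% and 49.4% to 39.3% and 39.2%, while Actg1 took 27.7% and 25.7%, then 25.3% and 25.1%. The ratio of Acta2 to Actb within a library, which no scaling of that library can alter, was 0.465 and 0.503 with vehicle and 0.896 and 0.904 with TGFbeta. Shares and ratios are given as values in each library and were not tested; an exact permutation test of 2 against 2 libraries cannot give a p below 0.33.

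**Figure D4:**
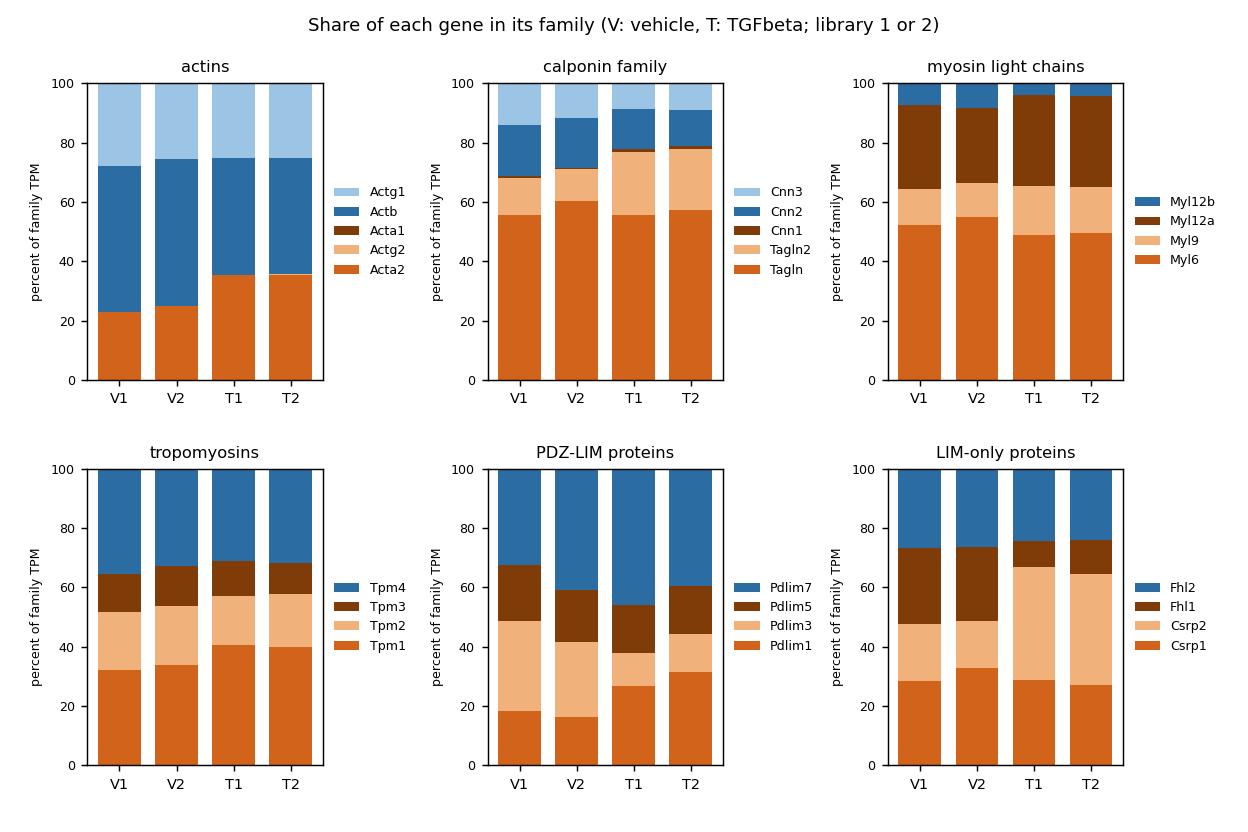
Percent of the summed TPM of a family (y axis) taken by each member in each library (x axis: V1, V2 vehicle; T1, T2 TGFbeta), for 6 families. Acta2, Tagln2, Pdlim1 and Csrp2 take larger shares in both TGFbeta libraries, while Actb, Myl12b, Pdlim3 and Fhl1 take smaller ones; Actg2 and Acta1 are too low to be seen.

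The calponin family binds along actin filaments and includes the transgelins. Tagln2, a transgelin of non-muscle cells (ENSMUSG00000026547.15, chromosome 1, 172500047 to 172507380, plus strand), had 334 and 304 TPM with vehicle and 809 and 849 TPM with TGFbeta. It had the smallest adjusted p of the members, with a 2.60-fold rise (log2 change 1.38, SE 0.14, limma adjusted p = 0.00988). Cnn1, the smooth muscle calponin (ENSMUSG00000001349.5, chromosome 9, 22099216 to 22109630, plus strand), had 16.4 and 8.89 TPM against 33.5 and 37.7 TPM. That is the widest gap between vehicle libraries in the set, and its 2.82-fold rise had the largest SE (log2 change 1.48, SE 0.28, limma adjusted p = 0.0392).

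Tagln, the smooth muscle transgelin (SM22), had 1492 and 1673 TPM with vehicle and 2113 and 2363 TPM with TGFbeta. The libraries did not overlap, but the log2 change of 0.50 did not pass (limma adjusted p = 0.137). Cnn2 and Cnn3, calponins of non-muscle cells, did not pass either, with mean TPM of 467 and 351 in vehicle and 511 and 349 in TGFbeta. The log2 change of Cnn3 was -0.0070, and median scaling and quantile normalization turned it above 0. The family share of Tagln2 went from 12.4% and 10.96% to 21.3% and 20.6%, while that of Tagln was 55.5% and 60.3% with vehicle and 55.6% and 57.3% with TGFbeta.

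None of the myosin genes was called (limma, 0 of 7 heavy and light chain genes, against 5.92% of all tested genes). Of the 7, 2 light chain genes had a limma unadjusted p under 0.05, against 24.5% of all tested genes. Among light chains, Myl6, the essential chain that stabilises the lever arm, had 2665 and 2681 TPM with vehicle and 2632 and 3145 TPM with TGFbeta, and the groups overlapped. Myl9, a regulatory chain typical of smooth muscle, had 617 and 555 TPM against 888 and 969.7 TPM. Its log2 change of 0.66 just missed (limma adjusted p = 0.0562) and was called after median scaling (limma adjusted p = 0.0365), with the filter at 5 TPM (0.0324) and in a robust fit (0.0416). Over all settings the adjusted p of Myl9 ran from 0.0324 to 0.328.

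Myl12a and Myl12b encode near-identical regulatory chains and lie next to each other, and their values went opposite ways. Myl12a had 1457 and 1245 TPM with vehicle and 1651 and 1956 TPM with TGFbeta (log2 change 0.42, limma adjusted p = 0.216). Myl12b had 371 and 406 TPM against 215 and 266 TPM (log2 change -0.70, limma adjusted p = 0.0583), and was called with the filter at 5 TPM (0.0295) and in a robust fit (0.0440), over a range from 0.0295 to 0.304. The ratio of Myl12a to Myl12b was 3.92 and 3.06 with vehicle and 7.69 and 7.36 with TGFbeta. Reads of this pair are hard to assign: 16.4% of the 50-base stretches in transcripts of Myl12a and 19.1% of those of Myl12b also occur in transcripts of other genes. GENCODE M21 moreover lists Myl12b as 2 entries on the minus strand of chromosome 17, at 70973133 to 70990890 and at 70974119 to 71002208, and the second entry reaches into Myl12a (70993656 to 71002878).

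Heavy chains carry the motor. Myh9, non-muscle myosin IIA, had 801 and 832 TPM with vehicle and 984 and 807 TPM with TGFbeta, and Myh10, myosin IIB, had 101 and 88.3 TPM against 105 and 109.8 TPM. Myh11, the smooth muscle motor, had 4.52 and 3.92 TPM against 4.62 and 4.92 TPM. Their log2 changes of 0.13, 0.19 and 0.15 did not pass (limma adjusted p = 0.683, 0.459 and 0.692). Myh9 made up 87.6% to 90.0% of heavy chain TPM in every library. Mylk, the myosin light chain kinase, had 9.87 and 6.81 TPM with vehicle and 3.13 and 4.75 TPM with TGFbeta. All its TGFbeta values lay below its vehicle values, but the log2 change of -0.92 (SE 0.26) did not pass (limma adjusted p = 0.0992).

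Tropomyosins lie along the filament and decide which proteins can bind it. None of the 4 was called (limma, 1 at an unadjusted p under 0.05, against 5.92% and 24.5% of all tested genes). Tpm1, the source of most muscle type tropomyosins, had 958 and 891 TPM with vehicle and 1263 and 1474 TPM with TGFbeta (log2 change 0.56, limma adjusted p = 0.0966), without overlap. Tpm4 had 1058 and 861 TPM against 962 and 1164 TPM, and Tpm2 and Tpm3 had mean TPM of 559 and 365 in vehicle and 585 and 382 in TGFbeta; for all 3 the groups overlapped. The share of Tpm1 in tropomyosin TPM went from 32.1% and 33.8% to 40.6% and 40.02%. Values per gene do not separate its splice forms.

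Alpha-actinins crosslink actin filaments. Actn1 had 903 and 874 TPM with vehicle and 1496 and 1186 TPM with TGFbeta, while Actn4 had 873 and 902 TPM against 904 and 746 TPM. Neither passed (log2 changes 0.58 and -0.11, limma adjusted p = 0.105 and 0.718), and that of Actn4 turned to 0.04 after median scaling. Per length the pair was nearly level in vehicle, with ratios of Actn1 to Actn4 of 1.03 and 0.969, and in TGFbeta the ratios were 1.65 and 1.59.

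Of 5 proteins that stabilise or scaffold filaments, 1 rose, against 1.54% of all tested genes called higher. Palld, which encodes palladin, a scaffold of stress fibre dense bodies (ENSMUSG00000058056.16, chromosome 8, 61511433 to 61902690, minus strand), had 87.3 and 78.1 TPM with vehicle and 134 and 131 TPM with TGFbeta. The difference was 1.60-fold (log2 change 0.68, SE 0.13, limma adjusted p = 0.0427). Cald1, or caldesmon, which restrains actomyosin, had 1247 and 1151 TPM against 1838 and 1911 TPM and just missed (log2 change 0.65, limma adjusted p = 0.0642); it was called after median scaling (0.0464), with the filter at 5 TPM (0.0413) and in a robust fit (0.0454), over a range from 0.0413 to 0.370.

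The remaining 3 are typical of differentiated smooth muscle, and none was higher. Smtn, or smoothelin, had 285 and 301 TPM with vehicle and 284 and 236 TPM with TGFbeta. Lmod1, an actin nucleator of smooth muscle, had 33.9 and 41.5 TPM against 30.9 and 35.5 TPM. Synpo2, or myopodin, had 31.5 and 32.2 TPM against 33.2 and 25.2 TPM. Their log2 changes were -0.18, -0.18 and -0.13 (limma adjusted p = 0.518, 0.566 and 0.690), near the median of all tested genes, and that of Synpo2 turned positive on median scaling (0.02) and on quantile normalization (0.0052).

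PDZ-LIM proteins anchor kinases and other partners to alpha-actinin, and here members of the family went opposite ways. Pdlim1 (ENSMUSG00000055044.12, chromosome 19, 40221173 to 40271842, minus strand) had 175 and 139 TPM with vehicle and 270.3 and 285 TPM with TGFbeta. It rose 1.77-fold (log2 change 0.83, SE 0.16, limma adjusted p = 0.0406). Pdlim3, the actinin-associated LIM protein of muscle (ENSMUSG00000031636.7, chromosome 8, 45885461 to 45919548, plus strand), had 289 and 217 TPM against 115 and 114 TPM. It fell 2.21-fold (log2 change -1.12, SE 0.17, limma adjusted p = 0.0245), and both TGFbeta libraries lay far below the lower vehicle library.

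The ratio of Pdlim1 to Pdlim3 was 0.606 and 0.643 with vehicle and 2.35 and 2.49 with TGFbeta, so the order of the pair differed between the groups in all 4 libraries. Pdlim7, which binds actin filaments and kinases, had 309.6 and 349 TPM against 465 and 355 TPM, with a log2 change of 0.30 (limma adjusted p = 0.349, not called). Pdlim5 did not pass either (log2 change -0.07, limma adjusted p = 0.826) and turned positive on median scaling (0.09) and on quantile normalization (0.01). A further family member from the wider list of stress fibre genes, Pdlim2, had 546 and 515 TPM with vehicle and 286 and 270.4 TPM with TGFbeta, and fell by 0.93 on the log2 scale (SE 0.13, limma adjusted p = 0.0216).

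The 4 LIM-only proteins also split. Csrp2, a cysteine-rich protein of smooth muscle that bundles actin (ENSMUSG00000020186.7, chromosome 10, 110919789 to 110939622, plus strand), had 261 and 206 TPM with vehicle and 530.4 and 563 TPM with TGFbeta. Its rise was 2.34-fold (log2 change 1.23, SE 0.16, limma adjusted p = 0.0172). Csrp1, its close relative, had 384 and 422 TPM against 401 and 411 TPM, with overlapping groups and a log2 change of 0.01. Csrp2 stood at 0.679 and 0.488 of the Csrp1 level with vehicle and at 1.32 and 1.37 with TGFbeta.

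Fhl1, a four-and-a-half-LIM protein of muscle (ENSMUSG00000023092.16, chromosome X, 56731787 to 56793346, plus strand), had 344 and 324 TPM with vehicle and 118 and 172 TPM with TGFbeta. The TGFbeta libraries differed from each other more than the vehicle libraries did, yet both were lower, and Fhl1 fell 2.31-fold (log2 change -1.22, SE 0.20, limma adjusted p = 0.0277). Fhl2, a relative that binds SRF, had mean TPM of 349 and 353 and a log2 change of 0.02. The ratio of Fhl2 to Fhl1 was 1.04 in both vehicle libraries and 2.88 and 2.12 with TGFbeta.

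Intermediate filaments and the transcription factor did not pass. Vim had 4194 and 4409 TPM with vehicle and 3245 and 3825 TPM with TGFbeta (log2 change -0.29, limma adjusted p = 0.396). Des had 3.94 and 3.92 TPM against 3.60 and 3.35 TPM (log2 change -0.14, limma adjusted p = 0.707), which turned positive on median scaling (0.01) and on quantile normalization (0.04). Srf had 56.4 and 68.1 TPM against 62.5 and 44.1 TPM, with overlapping groups (log2 change -0.24, limma adjusted p = 0.532).

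Genes that steer this machinery were read from lists outside the set. SRF acts with myocardin family cofactors and with ternary complex factors. Of these 6 genes limma called 0 (1 at an unadjusted p under 0.05), against 5.92% and 24.5% of all tested genes. Myocd, which encodes myocardin, had 0.739 and 0.554 TPM with vehicle and 1.29 and 1.78 TPM with TGFbeta (log2 change 0.62, limma adjusted p = 0.185). The related cofactor gene Mkl2 had a log2 change of -0.29 and the ternary complex factor gene Elk3 of 0.38. The median of the list was -0.01, against -0.13 for all tested genes.

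Of 25 genes that control phosphorylation of the myosin light chain, 1 rose and 1 fell (1.54% and 4.38% of all tested genes), with a list median of 0.0026. A limma unadjusted p under 0.05 was found for 7 of the 25, against 24.5% of all tested genes. Rhob, a small GTPase, had 110.4 and 104 TPM with vehicle and 181 and 158 TPM with TGFbeta (log2 change 0.66, SE 0.14, limma adjusted p = 0.0494). Cit, which encodes citron kinase of the dividing cell's contractile ring, had 8.44 and 7.75 TPM against 3.66 and 3.16 TPM (log2 change -1.04, SE 0.19, limma adjusted p = 0.0364). Rhob and Cit lost their calls whichever of the 4 libraries was left out; both also did with every gene above 0 and with the library number as a block (0.0914 and 0.0578). Rhob did so too with a pseudocount of 0.1 (0.0540) and without a trend (0.0905), and Cit after quantile normalization (0.0584). These limma adjusted p lay within ranges from 0.0258 to 0.272 and from 0.0239 to 0.197.

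Among 30 genes of actin assembly and turnover limma called 0, against 5.92% of all tested genes, and the list median was -0.03. Of the 30, 5 had a limma unadjusted p under 0.05, a smaller share than the 24.5% of all tested genes. Tmsb4x and Tmsb10, which encode thymosins that hold free actin, had log2 changes of 0.82 and 0.69, and Add1, or adducin, which caps filaments, of -0.60 (limma adjusted p = 0.0957, 0.0957 and 0.0607). In the list of other stress fibre and Z-line type proteins, 0 rose and 2 fell of 16 tested (1.54% and 4.38% of all tested genes). The list median was -0.18, and 10 of the 16 had a limma unadjusted p under 0.05, against 24.5% of all tested genes. Besides Pdlim2, Sorbs3, which encodes the adhesion adaptor vinexin, fell by 1.41 on the log2 scale (SE 0.17, limma adjusted p = 0.0131), from 175 and 229 TPM to 76.3 and 72.8 TPM. Both calls were lost whichever of the 4 libraries was left out. Its relative Sorbs2 had 144 and 78.1 TPM against 47.7 and 54.7 TPM (log2 change -1.04, limma adjusted p = 0.0903, not called).

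Sequence shared between genes bears on several values, because the authors' rule for reads with more than 1 origin is not given in the sources used here. By the share of 50-base stretches of a gene's GENCODE M21 transcripts that occur in transcripts of another gene, Actg1 stood highest with 37.4%, most of them in Gm12715 (33.2%), followed by Tpm3 with 23.2%, all in Tpm3-rs7. Tpm4 had 11.7%, Cnn3 10.3%, Actb 9.12% and Myl6 8.38%. Of the called members, Pdlim1 had 9.74%, Tagln2 0.565% and Acta2 0.326%, and the other called members 0. The 3 muscle actins of the set, close as their proteins are, shared little at this length, with 2.02% for Acta1 and 0 for Actg2.

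**Figure D5:**
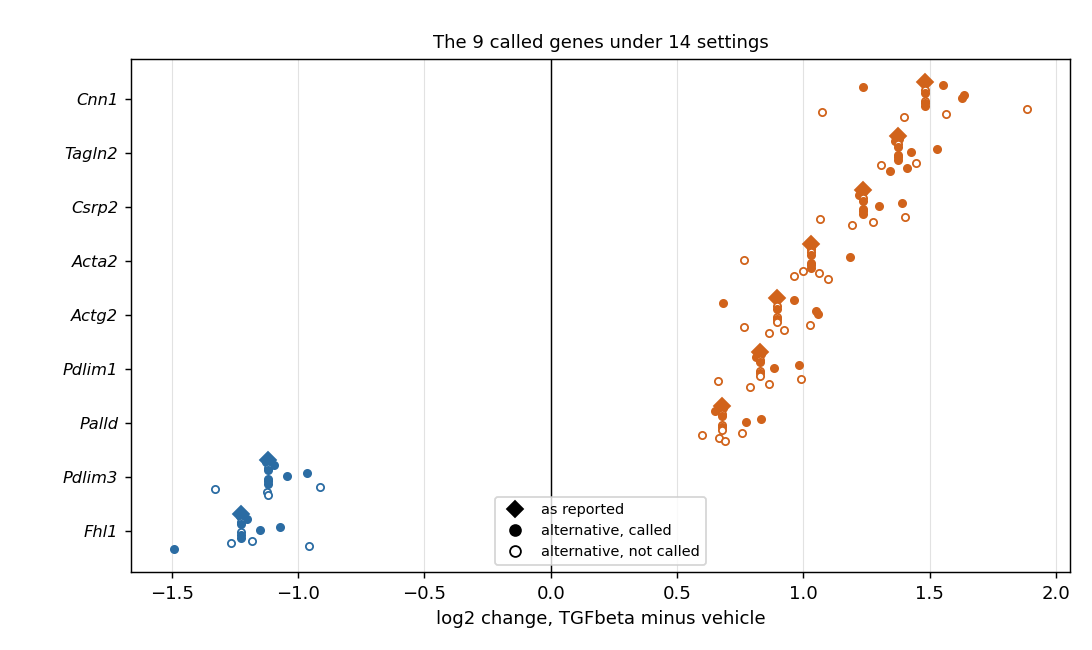
Log2 change (x axis) of the 9 called genes under the reported setting (diamonds) and 13 alternatives (circles), filled where the gene was called at an adjusted p under 0.05. The 9 genes kept their sign in all 13 alternatives, while most open circles belong to settings with a library left out or every gene above 0.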

How the data were processed

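RNA was sequenced by the submitters from 4 libraries. The authors deposited TPM by gene symbol, per the file headers, and each library was checked to sum to 1000000. No source used here names the quantifier or genome build. TPM keeps no read depth, so intervals for counting error cannot be had. Gene positions were looked up by symbol in GENCODE M21 (GRCm38). Tests used limma 3.58.1 in R 4.3.3 (lmFit, eBayes with an intensity trend, treatment as the only term, two-sided) on log2(TPM + 1), with Benjamini-Hochberg adjustment over all 15815 tested genes. The fit was tested on simulated data with known changes and independent noise, which checks the code and not the calls made here. Genes were named by rule: all 40 members, and called or up to 3 of the most changed genes of each wider list, of which 1 is not reported here. Values in each library are given for called, most abundant and smooth muscle genes; those of Acta1, Actg1, Myl9 and Myl12b were added after their values were seen. Members and lists were chosen with earlier results of these data known. Alternatives changed pseudocount, filter, scaling, variance model, replicate block or left out 1 library.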

Additional observations from a re-analysis of the deposited data

How the results depend on the processing

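With 1 vehicle or TGFbeta library left out, the lone library is assumed to vary like the other group. The 7 members called higher became 0 when every gene above 0 was tested, 3 without an intensity trend, 4 with the replicate block, and 0 to 1 with 1 library left out. The 2 called lower became 0 when every gene above 0 was tested, 1 without an intensity trend, and 0 to 1 with 1 library left out. The block is only a number: same-numbered libraries' deviations from their group means had a Pearson r of -0.05 across genes. Actg2, Palld and Pdlim1 lost their calls with the block and without a trend, Cnn1 and Fhl1 without a trend, and Acta2 after quantile normalization (0.76, limma adjusted p = 0.0542, within a range from 0.0111 to 0.264). The members' median of 0.13 moved to 0.28 after median scaling and ran from 0.09 to 0.14 with 1 library left out. Over all genes, limma called 244 higher and 692 lower, 421 and 401 after median scaling, 333 and 401 after quantile normalization, 346 and 1034 with the filter at 5 TPM, and 165 and 437 without a trend. All genes called fell to 0 without either vehicle library and with every gene above 0 (3033, 2407 and 4348 at an unadjusted p under 0.05), 171 without TGFbeta 1 and 203 without TGFbeta 2. The cause was not tested. Of 39 tested members, 27 kept their sign in all 13 alternatives and 12 turned in at least 1, none of them called. After median scaling Cnn3 had 0.15, Actn4 0.043, Synpo2 0.021, Pdlim5 0.088 and Des 0.015; after quantile normalization Actb had -0.063, Cnn3 0.090, Myl6 -0.14, Synpo2 0.0052, Pdlim5 0.012 and Des 0.040. With 1 library left out, Cnn3 ran from -0.12 to 0.11, Myl6 from -0.022 to 0.23, Myh9 from -0.018 to 0.27, Tpm2 from -0.10 to 0.22, Actn4 from -0.25 to 0.027, Synpo2 from -0.32 to 0.058, Pdlim5 from -0.18 to 0.048, Csrp1 from -0.056 to 0.080, Fhl2 from -0.034 to 0.065 and Srf from -0.48 to 0.011. Read depth is unknown, so its limits cannot be stated.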

Other observations

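Tagln3, the third transgelin gene and no member of the set, had 8.78 and 8.49 TPM with vehicle and 20.1 and 18.2 TPM with TGFbeta, and rose by 1.07 on the log2 scale (SE 0.16, limma adjusted p = 0.0237; lost without either vehicle library, as every call was). Myl6b, a relative of the essential light chain gene Myl6, had 12.5 and 15.6 TPM against 11.8 and 9.19 TPM (limma adjusted p = 0.295, not called). Both were looked at after their values were seen.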
